A study of Mus musculus with 36 samples.

Results

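Neurofilament and neuronal cytoskeleton genes were followed through ribosome pull-downs and unbound RNA of the mouse striatum. They are Nefl, Nefm and Nefh, which encode the light, medium and heavy neurofilament subunits, Ina, which encodes alpha-internexin, Mtap2, which encodes the dendritic microtubule-associated protein MAP2, and Tubb3, which encodes the neuron-specific class III beta-tubulin. The 6 genes were taken by their symbols from both deposited tables, as 6 of 22560 gene lines with values in one table and 6 of 22380 in the other, and each symbol stood on 1 line. They were chosen by their RPKM in the microglial pull-down and the unbound RNA, since Nefl was higher in the pull-down while other neuronal genes were lower, so values of the microglial pull-down against the unbound RNA are given below as a description, without a test.

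Neurofilaments are the intermediate filaments of neurons. The light subunit forms the core of the polymer, the medium and heavy subunits and alpha-internexin join it, and the long phosphorylated tails of the medium and heavy subunits set the spacing of filaments in the axon. Neurofilaments fill large myelinated axons and are known for their slow transport and long life, and the light chain released into body fluids is used as a marker of axonal damage. MAP2 binds and stabilises microtubules in dendrites and cell bodies, and class III beta-tubulin is built into neuronal microtubules.

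The study used translating ribosome affinity purification (TRAP), in which an eGFP tag on the ribosomal protein L10a lets antibodies collect the ribosomes of the cells that express it, and the RNA left behind is the unbound fraction. It asked, as its title states, how microglia control neuronal activity by negative feedback. RNA was sequenced from 35 libraries in 12 groups, 20 from a microglial line and 15 from a D1 neuron line. The microglial line carried Camk2a-tTA with TetO-Chrm3 or TetO-Chrm4, designer receptors under a driver of forebrain neurons, and Cx3cr1CreErt2/+(Litt) with Eef1a1LSL.eGFPL10a/+, so that the tag was switched on by tamoxifen, given at 4 to 6 weeks of age, in cells that use the Cx3cr1 promoter (microglia and some other myeloid cells). Clozapine-N-oxide (CNO), the ligand of these receptors, or saline was injected 2 h before the experiment. Chrm3 mice gave 3 CNO and 3 saline libraries of each fraction and Chrm4 mice 2 CNO and 2 saline libraries of each. All of them carried a receptor, so CNO without a receptor was not measured here. The D1 line carried Drd1-eGFPL10a, which tags D1 receptor neurons. Its libraries labelled IL34-KO (3 pull-down, 4 unbound) were from Drd1-eGFPL10a; Drd1-Cre; Il34-/- mice and those labelled control (4 pull-down, 4 unbound) from Drd1-eGFPL10a; Il34-/- mice, so the source labels give Il34-/- for both groups; ages and treatments are not given for this line. The labels do not say whether libraries came from separate or pooled animals, so p-values measure the spread between these libraries, which may be technical.

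Libraries of the microglial line held 12.1 to 109 M reads in genes, and those of the D1 line 11.3 to 41.1 M reads. Cx3cr1, a microglial receptor gene, had group means of 193 to 239 RPKM (reads per kilobase of gene length and per M reads of the library) in the microglial pull-downs and of 1.25 to 1.75 RPKM in their unbound RNA. In the D1 line, the summed level of 8 D1 neuron markers was 1233 to 2464 RPKM over the pull-down libraries and 232 to 498 RPKM over the unbound libraries. Il34, the gene named by the label, averaged 10.3 ± 0.704 RPKM in the D1 pull-downs labelled IL34-KO and 9.03 ± 1.73 RPKM in those labelled control (SD, n = 3 and 4). It was thus not lower under that label, but the RPKM of a whole gene does not show whether its product is functional. In the unbound RNA labelled IL34-KO and control, Cx3cr1 averaged 0.971 ± 0.316 and 1.89 ± 0.445 RPKM (SD, n = 4 each). Ctss, another microglial gene, averaged 8.86 ± 2.24 and 12.8 ± 1.53 RPKM there. Whether the label holds was not tested, and the groups are called "labelled IL34-KO" and "labelled control". The summed level of 8 cortical neuron markers was 60.9 to 87.5 RPKM in 1 library of each D1-line group and 13.4 to 30.4 RPKM in the other libraries of that line. The RPKM of the D1-line unbound libraries were divided by totals 1.70 to 1.97 times the reads in the table's genes, against 1.01 to 1.05 times in all other libraries, which lowers every gene in those unbound libraries.

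Nefl and Nefm are neighbours on chromosome 14 (GENCODE M21 on GRCm38, a build other than the authors' mm9), with Nefl on the plus strand at 68083863 to 68089095 and Nefm on the minus strand at 68082590 to 68124846. Exons of these annotated genes share 1108 bases on opposite strands, which is 32.8% of the exon bases of Nefl and 19.2% of those of Nefm. The gene lengths recovered from the RPKM, 3380 bases for Nefl and 5782 for Nefm, equal their exon bases in GENCODE M21, shared bases included. Whether the authors' counting used strand, or how it assigned reads in shared bases, is not given in the sources used here. The values of both genes are uncertain to that extent, and reads from this stretch cannot be told apart. Nefh lies on chromosome 11 (4938754 to 4948064, minus strand), Ina on chromosome 19 (47014698 to 47025327, plus strand), Mtap2 on chromosome 1 (66175273 to 66442583, plus strand) and Tubb3 on chromosome 8 (123411424 to 123422015, plus strand). Ina shares 456 exon bases (14.1% of its own) with Nt5c2 on the opposite strand, and Mtap2 shares 124 (0.754%) with Gm10558.

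Nefl was among the most abundant transcripts of the microglial pull-down. It ranked 26th in Chrm3 CNO, 37th in Chrm3 saline, and 30th in both Chrm4 CNO and Chrm4 saline pull-downs, counted from the highest mean RPKM. In the unbound RNA of the same lines its ranks were 57, 102, 98 and 104 in the same order of groups. Its level was 654, 642 and 608 RPKM in the 3 Chrm3 CNO pull-down libraries and 394, 547 and 634 RPKM in the 3 Chrm3 saline pull-down libraries. The Chrm4 pull-downs held 673 and 477 RPKM with CNO and 529 and 648 RPKM with saline. Every one of these 10 pull-down libraries was above every one of the 10 unbound libraries, which ran from 207 to 373 RPKM. How many of all genes separate the fractions in this way was not counted. Among saline libraries of both receptor lines the difference of mean log2(RPKM + 1), pull-down minus unbound, was 1.24, a 2.36-fold higher level, and 86.6% of genes had a smaller difference. It was 0.96 in Chrm3 CNO, 1.17 in Chrm3 saline, 1.25 in Chrm4 CNO and 1.34 in Chrm4 saline groups.

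**Figure D1:**
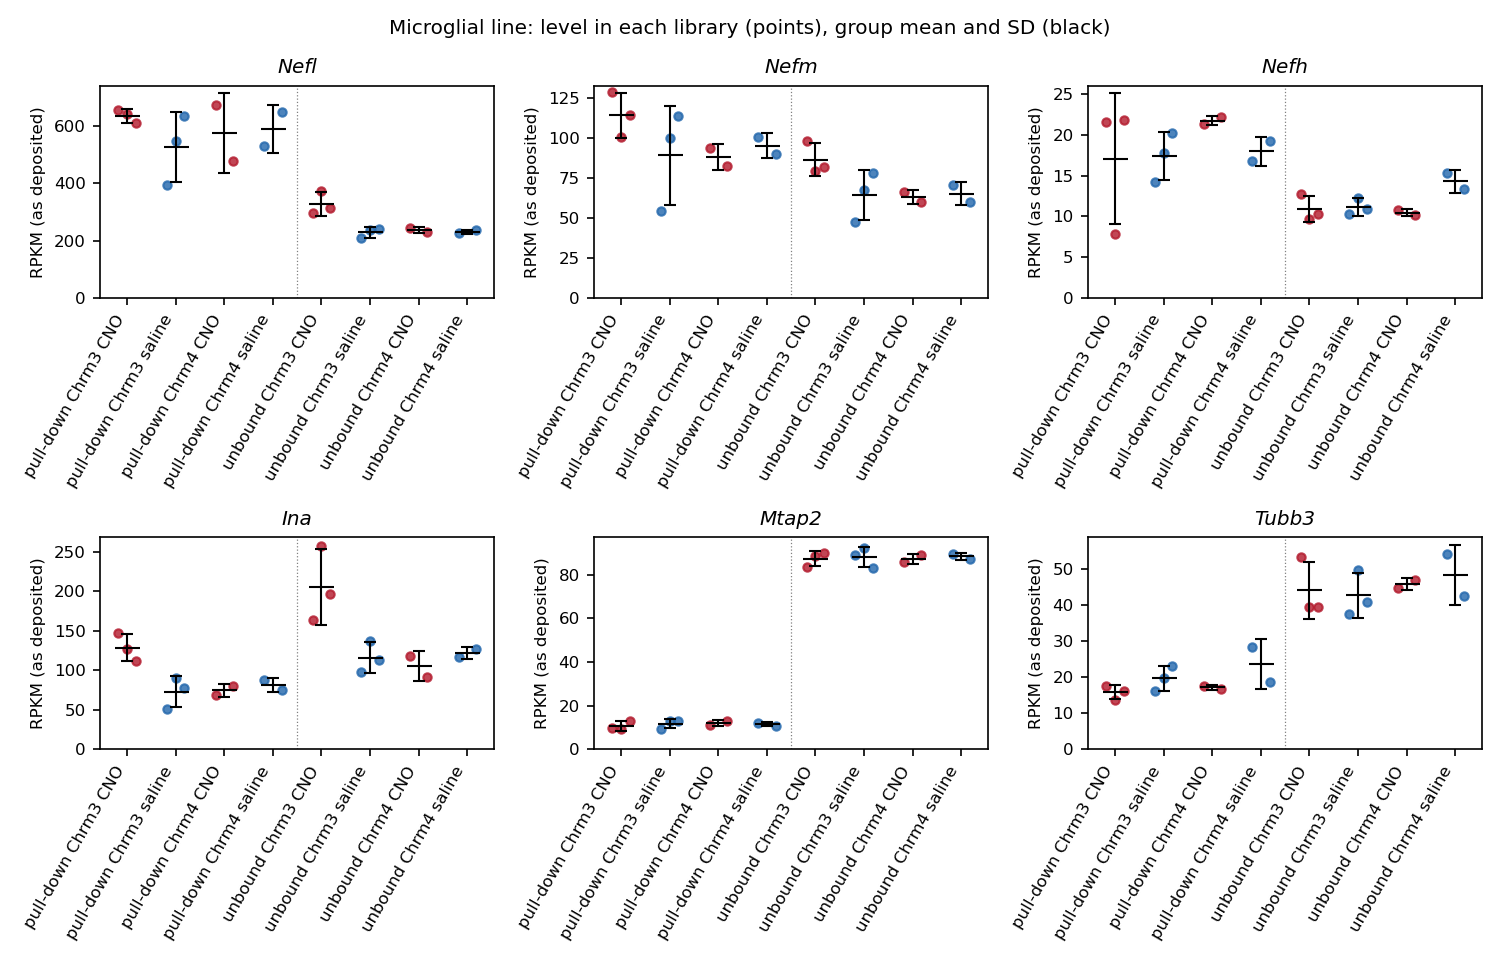
RPKM of the 6 genes in each of the 20 libraries of the microglial line (points, linear axis, one panel per gene), by receptor, fraction and treatment. CNO is in red and saline in blue, with group means and SD in black. All 10 pull-down libraries lie above all 10 unbound libraries for Nefl and below them for Mtap2 and Tubb3. The share of all genes that separate in this way was not counted.

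The other filament subunits did not separate the fractions in the microglial line. Nefm ran from 54.4 to 129 RPKM over the 10 pull-down libraries and from 47.5 to 98.3 RPKM over the 10 unbound libraries, and Nefh from 7.82 to 22.1 RPKM over the pull-down and from 9.72 to 15.3 RPKM over the unbound libraries. Ina ran from 51.2 to 147 RPKM in the pull-downs and from 91.7 to 258 RPKM in the unbound RNA. The ranges of these 3 genes overlap between the fractions. Pull-down minus unbound, in saline libraries, was 0.47 for Nefm, 0.48 for Nefh and -0.64 for Ina on the log2(RPKM + 1) scale.

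The microtubule genes lay on the other side. Mtap2 was 9.26 to 13.2 RPKM over the pull-down libraries and 83.1 to 92.3 RPKM over the unbound libraries, a difference of -2.82 in saline libraries, and 0.034% of genes had a lower one. Tubb3 was 13.7 to 28.5 RPKM in the pull-downs and 37.5 to 54.2 RPKM in the unbound RNA, a difference of -1.06. For each of these genes no pull-down library reached an unbound library, and the share of all genes for which this holds was not counted. The synaptic vesicle genes Snap25 and Syt1 and the neuronal nuclear gene Rbfox3 had differences of -2.17, -2.03 and -1.62. Of 15 pan-neuronal genes none was higher in the pull-down, their median difference was -1.65 and the nearest to 0 was Syp at -0.84. The median was -0.02 over 11756 genes, of which 48.8% were higher in the pull-down. All 12 microglial markers were higher, with a median difference of 6.79, and all 8 cortical neuron markers were lower, with a median of -1.55.

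**Figure D2:**
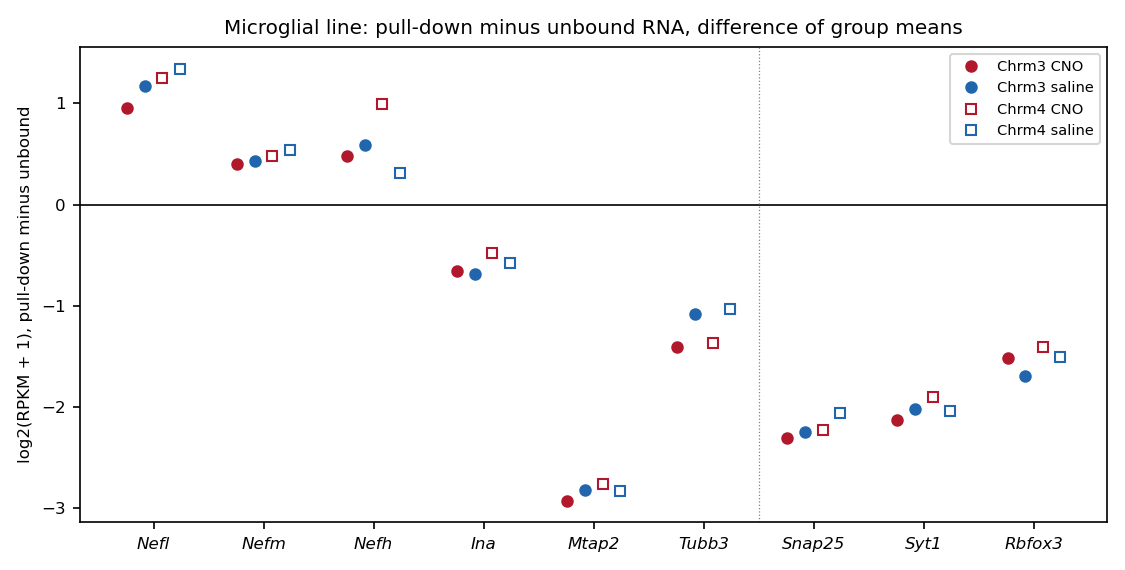
Difference of mean log2(RPKM + 1), microglial pull-down minus unbound RNA, for the 6 genes and 3 other neuronal genes, one marker per group (Chrm3 CNO, Chrm3 saline, Chrm4 CNO, Chrm4 saline). Nefl lies between 0.96 and 1.34 in the 4 groups, while Mtap2, Tubb3, Snap25, Syt1 and Rbfox3 lie below 0; the contrast chose the genes and carries no test.

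Within single libraries, where depth and scaling cancel, some proportions among the 6 genes differed between fractions. The ratio of Nefl to Mtap2 was 36.4 to 68.5 over the microglial pull-downs and 2.33 to 4.22 over their unbound RNA. In the D1 line it was 4.69 to 5.82 over the pull-downs and 0.787 to 1.11 over the unbound RNA. The ratio of Nefl to Nefm averaged 6.05 ± 0.877 in the microglial pull-downs and 3.71 ± 0.541 in their unbound RNA (SD, n = 10 each), and the ranges of 5.09 to 7.25 and 3.00 to 4.69 did not meet. The ratio of Nefl to Ina was 4.46 to 9.73 in the microglial pull-downs and 1.45 to 2.50 in their unbound RNA. Nefl therefore stood higher in the pull-down relative to Nefm, Ina and Mtap2 in each of these comparisons of ranges. For the microglial line this describes the contrast by which the genes were chosen. Nefl to Nefh overlapped there, at 21.5 to 82.1 in the pull-downs and 14.8 to 38.4 in the unbound RNA. In the D1 line Nefl to Nefm overlapped (1.77 to 3.40 and 1.45 to 2.35), while Nefl to Ina did not (1.98 to 2.77 and 1.13 to 1.59).

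Relatives of the 6 genes were placed by lists of cytoskeletal genes. Among 6 other intermediate filament genes, 2 were higher in the microglial pull-down of saline mice and the median difference was -0.33. Among 12 other tubulin genes 6 were higher (median 0.01), with the alpha-tubulin gene Tuba1c at 2.51. Of 20 microtubule-associated and stathmin genes 2 were higher (median -1.41), with Mapre1, which encodes the plus-end binding protein EB1, at 1.32. Of 16 spectrin, ankyrin and actin genes the one higher was Actb, cytoplasmic beta-actin, at 1.83. Of 17 motor genes 3 were higher (median -0.84), with the kinesin gene Kif21b at 1.85, and of 18 genes of neurofilament kinases and turnover 2 were higher (median -0.70), with the kinase gene Mapk3 at 1.38. Over all 11756 genes, 48.8% were higher in the pull-down of saline mice, and the counts above are read against this share. The genes named here are the highest of their lists. The differences in these lists were not tested.

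In the unbound RNA of Chrm3 mice, Nefl, Nefm and Ina were each higher in all 3 CNO libraries than in all 3 saline libraries, while Nefh, Mtap2 and Tubb3 overlapped. Over all 11123 genes tested, the 3 CNO and 3 saline libraries did not overlap for 18%, with CNO above for 4.94% and below for 13%. None of the 6 passed the threshold (an adjusted p under 0.05 over all genes in limma's moderated test), in a comparison in which 0.701% of genes were called (0.575% higher and 0.126% lower with CNO). Before adjustment, p was under 0.05 for 3 of the 6, and for 12.4% of all genes tested. Limma's voom on the reads recovered from the RPKM called 2 of the 6, Nefl and Ina. Voom also called more genes among all than the reported fit, as counted in the closing section. Its count is therefore not read as a result about the 6 genes.

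Ina was 163, 258 and 196 RPKM in the Chrm3 CNO unbound libraries and 98.0, 137 and 113 RPKM in the Chrm3 saline unbound libraries. The lowest CNO library was above the highest saline library. The means were 206 ± 48.0 RPKM with CNO and 116 ± 19.7 RPKM with saline (SD, n = 3 each), and the difference was 0.81 ± 0.17 (SE) on the log2(RPKM + 1) scale, with a 95% interval of 0.45 to 1.18 and an adjusted p of 0.0527 in limma. It was the 106th largest difference of 11123 genes.

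Nefl was 295, 373 and 315 RPKM in the Chrm3 CNO unbound libraries and 207, 237 and 241 RPKM in the Chrm3 saline unbound libraries, again with no overlap. Its difference was 0.51 ± 0.11 (interval 0.28 to 0.75), a 1.43-fold higher level, with an adjusted p of 0.0524 in limma, and it was the 220th largest. Without the CNO library at 295 RPKM of Nefl both genes passed (limma adjusted p = 0.0312 for Nefl), and without the saline library at 237 RPKM of Nefl Ina passed (limma adjusted p = 0.0435), so that single libraries set the side of the threshold. Nefm was 98.3, 79.6 and 82.2 RPKM with CNO and 47.5, 67.5 and 78.1 RPKM with saline, where the nearest CNO and saline libraries differ little. Its difference was 0.45 ± 0.16 (interval 0.10 to 0.79, limma adjusted p = 0.273), and without the saline library at 47.5 RPKM it was 0.25.

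The intervals of the other 3 genes included 0. Mtap2 averaged 87.3 ± 3.37 RPKM in Chrm3 CNO and 88.1 ± 4.65 RPKM in Chrm3 saline unbound RNA (SD, n = 3 each), a difference of -0.01 with an interval of -0.19 to 0.17. Tubb3 averaged 44.1 ± 7.98 RPKM with CNO and 42.7 ± 6.36 RPKM with saline (difference 0.04, interval -0.27 to 0.35). Nefh averaged 10.9 ± 1.62 RPKM with CNO and 11.2 ± 1.05 RPKM with saline, a difference of -0.03 ± 0.13. Over the 6 genes the median difference was 0.24, beside -0.07 over all genes tested.

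Marker levels moved beside these values. The summed cortical markers were 235, 197 and 210 RPKM in the Chrm3 CNO unbound libraries and 107, 220.5 and 147 RPKM in the Chrm3 saline unbound libraries, listed in the same order as the Nefl values, and all 8 of 8 markers had a difference above 0 (median 0.49). The saline library lowest in Nefl, Nefm and Ina was also the one lowest in cortical markers. The summed level of 11 markers of striatal spiny neurons was 725 to 949 RPKM with CNO and 897 to 1319 RPKM with saline, and 0 of 11 had a difference above 0 (median -0.53). Of the 15 pan-neuronal genes 10 had a difference above 0 (median 0.11). Over all genes tested, 35.4% had a difference above 0 (median -0.07). Of 34 genes in these 3 lists limma and voom called 0. In limma 8 of them had an unadjusted p under 0.05, as did 12.4% of all genes tested. The part of tissue composition in the Nefl and Ina values was not tested. In bulk RNA, fewer cells of a type and less RNA per cell cannot be told apart.

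These libraries also differed in depth. The 6 Chrm3 unbound libraries fell into 3 of 75.7 to 97.1 M reads and 3 of 12.1 to 28.7 M reads. Among the deep libraries Ina was 258 and 196 RPKM with CNO and 98.0 RPKM with saline, and among the shallow libraries 163 RPKM with CNO and 137 and 113 RPKM with saline. Nefl was 373 and 315 RPKM with CNO and 207 RPKM with saline in the deep libraries, and 295 RPKM with CNO and 237 and 241 RPKM with saline in the shallow ones. In both depth classes the CNO libraries were above the saline libraries for both genes. Since the 3 CNO libraries were above the 3 saline libraries for both, any split of them gives this order. The part of depth in these values was not tested.

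**Figure D3:**
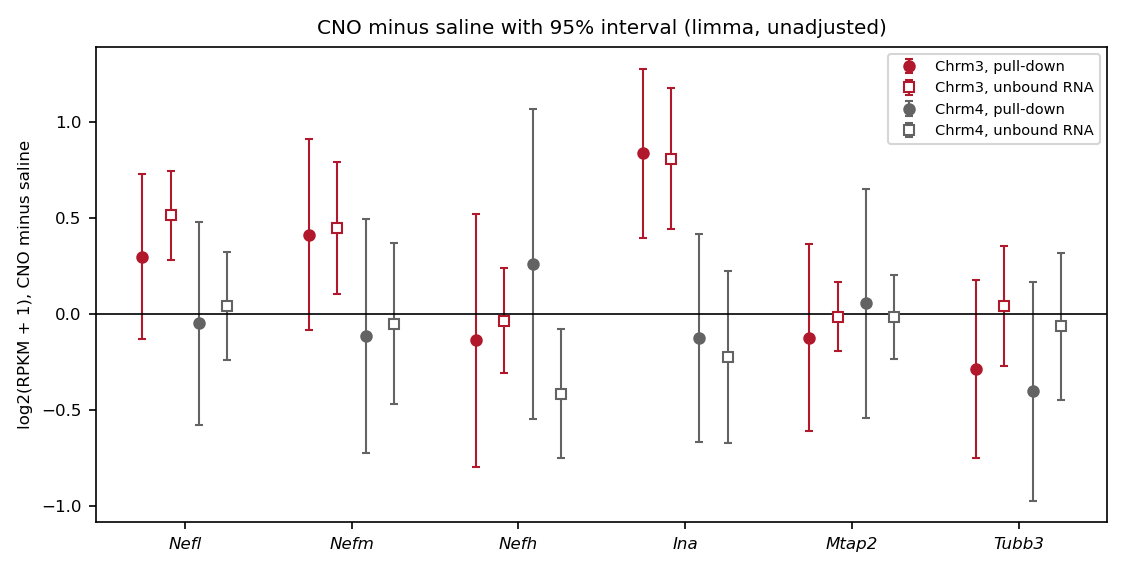
Difference of log2(RPKM + 1), CNO minus saline, with its unadjusted 95% interval, for the 6 genes in the pull-down and the unbound RNA of Chrm3 and Chrm4 mice. In Chrm3 unbound RNA the intervals of Nefl, Nefm and Ina lie above 0, at differences of 0.51, 0.45 and 0.81.

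In the microglial pull-down of Chrm3 mice Ina was also separated by treatment. It was 147, 127 and 112 RPKM in the Chrm3 CNO pull-downs and 51.2, 90.2 and 77.7 RPKM in the Chrm3 saline pull-downs, with all CNO libraries above all saline libraries, an order that 3.94% of all genes tested had. The difference was 0.84 ± 0.21 (interval 0.40 to 1.28, limma adjusted p = 0.362), the 119th largest of 11465. None of the 6 genes reached the threshold, which 0.0436% of genes did, and voom called 0. In limma 1 of the 6 had an unadjusted p under 0.05, as did 5.49% of all genes tested. The difference was 0.30 ± 0.20 for Nefl, 0.41 ± 0.23 for Nefm, -0.14 ± 0.31 for Nefh, -0.12 ± 0.23 for Mtap2 and -0.29 ± 0.22 for Tubb3, each with overlapping groups. The cortical marker sum was 68.7, 46.3 and 88.9 RPKM in the CNO pull-downs and 24.1, 62.3 and 76.7 RPKM in the saline pull-downs, in the order of the Ina values, and its part in them was not tested.

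In Chrm4 mice none of the 6 genes passed in the pull-down or in the unbound RNA, comparisons in which 0% of 11465 and 0% of 11123 genes passed in limma. Of the 6, 0 in the pull-down and 1 in the unbound RNA had an unadjusted p under 0.05, and voom called 0 in both. Of all genes tested, 3.78% and 5.03% had such a p in limma, in the same order. Nefl was 245 and 230 RPKM in Chrm4 CNO and 226 and 235 RPKM in Chrm4 saline unbound RNA, where the groups overlap. Ina was 69.1 and 80.3 RPKM in Chrm4 CNO and 88.2 and 74.9 RPKM in Chrm4 saline pull-downs, and 118 and 91.7 RPKM in Chrm4 CNO and 116 and 127 RPKM in Chrm4 saline unbound RNA. Its differences were -0.12 ± 0.25 and -0.22 ± 0.21, and those of Nefl -0.05 ± 0.25 and 0.04 ± 0.13, in the pull-down and the unbound RNA. In the Chrm4 pull-down the 2 CNO libraries were above the 2 saline libraries for Nefh (0.26 ± 0.38) and below them for Tubb3 (-0.40 ± 0.27), where 35.4% of all genes tested did not overlap. The one gene with an unadjusted p under 0.05 was Nefh in the unbound RNA, at 10.7 and 10.1 RPKM with CNO and 15.3 and 13.3 RPKM with saline. Its groups did not overlap, as was so for 33.6% of all genes tested, and its difference was -0.41 ± 0.15 (limma adjusted p = 0.916).

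The difference between receptor lines was tested as an interaction, Chrm3 effect minus Chrm4 effect. For Ina it was 1.03 ± 0.27 in the unbound RNA (limma adjusted p = 0.286) and 0.96 ± 0.33 in the pull-down (limma adjusted p = 1.00). For Nefl it was 0.47 ± 0.17 in the unbound RNA (limma adjusted p = 0.579) and 0.35 ± 0.32 in the pull-down. None of the 6 genes passed in either fraction, where 0.0539% of genes passed in the unbound RNA (0.036% higher and 0.018% lower) and 0% in the pull-down, so the CNO differences of Ina and Nefl were not shown to differ between the receptor lines. With an unadjusted p under 0.05 there were 2 of the 6 in the unbound RNA and 1 in the pull-down, and voom called 0 in both. Over all genes tested, 794 of 11123 and 452 of 11465 had such a p in limma, in the same order.

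Of the other cytoskeletal genes in the lists, limma and voom called 0 in each of the 4 CNO comparisons. An unadjusted p under 0.05 was found for 1 of 86 in the Chrm3 pull-down and 4 of 86 in the Chrm4 pull-down. It was found for 6 of 88 in Chrm3 unbound RNA and 3 of 88 in Chrm4 unbound RNA. Over all genes tested the shares were 5.49%, 3.78%, 12.4% and 5.03% in the same order. In Chrm3 unbound RNA the gene of each list with the smallest p was Gfap, the astrocyte filament, at -0.37 (limma adjusted p = 0.451), the alpha-tubulin Tuba8 at 0.60 (0.380), the microtubule-associated Mtap9 at 0.22 (0.379), the beta-spectrin Spnb2 at 0.29 (0.319), the kinesin heavy chain Kif5c at 0.20 (0.386) and Mapk3 at -0.34 ± 0.11 (0.216).

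The genes whose level over the 20 libraries of the microglial line was most like that of Ina were Pcsk1, a neuropeptide-processing protease, Egr1, an activity-regulated transcription factor, Nptx2, a secreted synaptic pentraxin, Arc, an activity-regulated synaptic gene, and Bdnf, a neurotrophin. Their Pearson correlations of log2(RPKM + 1) with Ina were 0.910, 0.900, 0.892, 0.889 and 0.882 over 11721 genes ranked. Fos, an immediate-early gene, averaged 105 ± 85.5 RPKM in Chrm3 CNO and 2.56 ± 2.16 RPKM in Chrm3 saline unbound RNA (SD, n = 3 each). Nefl was most like Kdm6b (0.960), Ctnnd1 and Stk40 (0.947 each), Syncrip (0.945) and Pan3 (0.943), and Mtap2 most like Ttc3 (0.995) and Zfr (0.992). Mtap2 and Tubb3 correlated at 0.947 and Nefl and Mtap2 at -0.918. These correlations share libraries of 2 fractions, so the separation of the fractions enters them, and they are descriptions.

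RefSeq's promoter table of GRCm38.p6 held 3 of the 6 genes, Ina, Mtap2 and Tubb3; Nefl, Nefm and Nefh were not matched. The 250 bases before RefSeq's start of Ina (chr19:47014431-47014680, plus strand) are shown because its CNO and saline libraries did not overlap in either fraction of Chrm3 mice. Capitals mark each match to the Sp1 box GGGCGG on either strand (CCGCCC on the strand shown).
Ina: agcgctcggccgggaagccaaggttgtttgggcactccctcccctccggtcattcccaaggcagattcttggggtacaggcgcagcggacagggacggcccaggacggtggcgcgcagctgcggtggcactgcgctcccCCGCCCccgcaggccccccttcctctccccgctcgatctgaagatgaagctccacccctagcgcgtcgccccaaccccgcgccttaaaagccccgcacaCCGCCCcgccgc
The Ina window held 2 Sp1 boxes and had a GC content of 70.8%. The windows before RefSeq's starts of Mtap2 (chr1:66175079-66175328) and Tubb3 (chr8:123411303-123411552) held 5 and 2 Sp1 boxes, with GC contents of 81.2% and 68%. RefSeq's starts of Mtap2 and Tubb3 lie inside the GENCODE genes given above, so 56 and 129 bases of these windows do too; the Ina window has 0 such bases. Of 32851 promoter windows of that length, 32.7% held at least 1 Sp1 box. None of the 3 windows held the cyclic AMP response element TGACGTCA (in 1.55% of windows), its core TGACG (17.8%, which the full element contains) or TATAAA (12.4%), each searched on both strands. A match is a run of letters, not a binding site, and a window without one says only that those letters are not in it.

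In the D1 line Nefl and Nefm were higher in the pull-down than in the unbound RNA as deposited and after rescaling to the reads in genes, and Mtap2 was lower in both. Nefl was 244, 237 and 210 RPKM in the pull-downs labelled IL34-KO and 73.8, 63.9, 60.6 and 48.0 RPKM in the unbound RNA labelled IL34-KO. It was 276, 228, 229 and 214 RPKM in the pull-downs labelled control and 72.1, 62.8, 60.7 and 44.5 RPKM in the unbound RNA labelled control. Every pull-down library was above every unbound library. The difference was 1.90 ± 0.15 in the libraries labelled IL34-KO (limma adjusted p = 7.48e-09) and 1.98 ± 0.14 in those labelled control (adjusted p = 2.03e-09), the 57th and the 21st largest of 10266 genes.

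All 6 genes passed the threshold in both groups and separated the fractions, in comparisons in which 90.9% of genes passed for the group labelled IL34-KO (85% higher and 5.92% lower in the pull-down) and 91.7% for the group labelled control (84.8% higher and 6.84% lower), so the count of 6 is read against the median of all genes, 0.85 and 0.81. The fractions did not overlap for 88.4% of all genes in the group labelled IL34-KO and for 87.2% in the group labelled control. Above those medians Nefl stood by 1.05 and 1.17, Nefm by 0.75 and 0.83 and Tubb3 by 0.59 and 0.54, and Mtap2 stood below them by -1.33 and -1.27. Ina (0.31 and 0.33) and Nefh (0.17 and 0.07) stood near them. Mtap2 was the one of the 6 lower in the pull-down as deposited, at 39.3 to 48.6 RPKM over 7 pull-down libraries and 54.1 to 71.7 RPKM over 8 unbound libraries (-0.48 ± 0.10 and -0.46 ± 0.10). Nefm was 75.7 to 130 RPKM over the pull-down and 19.3 to 41.9 RPKM over the unbound libraries, and Tubb3 35.9 to 58.9 RPKM and 13.4 to 23.0 RPKM in the same order of fractions. Ina was 77.5 to 116 RPKM in the pull-downs and 28.2 to 61.3 RPKM in the unbound RNA, and Nefh 9.42 to 16.2 RPKM and 2.72 to 8.25 RPKM, so that the fractions stayed apart for each gene. Voom on the recovered reads, scaled to the reads in genes, called 4 of the 6 in each group. Without the library of each group that was richest in cortical markers, limma called 6 of the 6 in each group. The shares of all genes called in the voom fit and in this refit are not given here. These counts are therefore not read as a result about the 6 genes.

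When the RPKM were rescaled to the reads in the table's genes, an alternative chosen after the denominators had been seen, 59.3% of genes passed for the group labelled IL34-KO (38.3% higher, 20.9% lower) and 58.5% for the group labelled control (36% higher, 22.5% lower), and the median of all genes was 0.14 and 0.11 in that order. Nefl was then 1.06 ± 0.14 higher in the pull-downs labelled IL34-KO (limma adjusted p = 1.25e-05) and 1.15 ± 0.13 in those labelled control (2.15e-06). Nefm (0.77 ± 0.19 and 0.83 ± 0.18) and Tubb3 (0.63 ± 0.15 and 0.55 ± 0.13) also passed, and Mtap2 fell by 1.32 ± 0.08 and 1.28 ± 0.07. Ina (0.32 ± 0.17, adjusted p = 0.120, and 0.32 ± 0.16, adjusted p = 0.0976) and Nefh (0.27 ± 0.23 and 0.16 ± 0.21) did not pass.

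**Figure D4:**
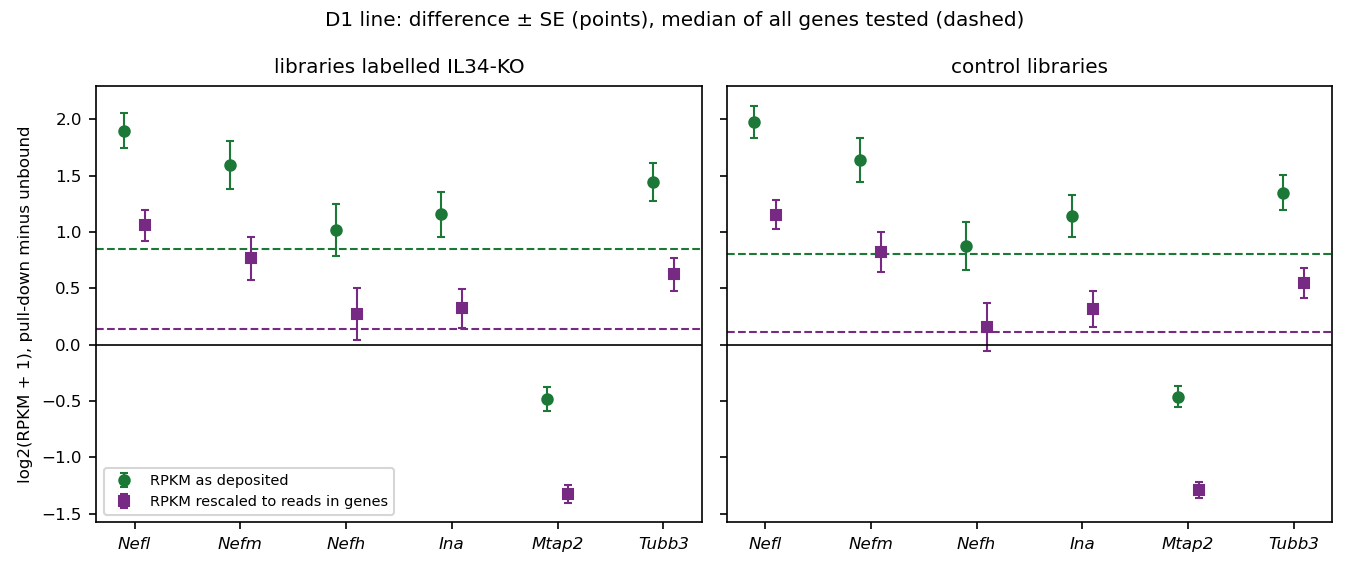
Difference of log2(RPKM + 1), D1 pull-down minus unbound RNA, with its SE, as deposited (green) and rescaled to the reads in genes (purple), in libraries labelled IL34-KO (left) and control (right); dashed lines are the medians of all genes. Of the 6 genes, Nefl lies farthest above the dashed line and Mtap2 lies below it under both scalings.

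The counts of other cytoskeletal genes in the D1 fractions depended on that scaling, as did those of all genes. In the libraries labelled control, 84.8% of all genes tested were called higher and 6.84% lower as deposited. After rescaling 36% were called higher and 22.5% lower, and the counts below are read against these shares. As deposited, in the libraries labelled control, 17 of 18 genes of neurofilament kinases and turnover were higher in the pull-down (median 1.10) and 10 were higher and 2 lower after rescaling (median 0.40). Cdk5, a kinase of the neurofilament tails, was 1.51 higher as deposited and 0.74 rescaled, its activator gene Cdk5r2 1.44 and 0.63, and Sod1 1.46 and 0.63. Of 20 microtubule-associated and stathmin genes 16 were higher and 1 lower as deposited, and 7 higher and 9 lower after rescaling. Of 17 motor genes 14 were higher as deposited and 8 after rescaling, with the kinesin light chain Klc1 at 1.37 and 0.56, while the neuronal kinesin heavy chain Kif5a was -0.63 and -1.46. The neuroblast gene Dcx was -0.52 and -1.25, Macf1, which crosslinks actin and microtubules, -0.49 and -1.27, the beta-tubulin Tubb2b -0.56 and -1.31, and the astrocyte filament gene Gfap -1.01 and -1.69.

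The groups of the D1 line did not separate for any of the 6 genes. None passed between libraries labelled IL34-KO and control, in the pull-down (where 0.00957% of genes were called) or in the unbound RNA (0%). Limma gave 0 of the 6 an unadjusted p below 0.05 in either fraction, and voom called 0. Over all genes tested, 1.53% in the pull-down and 0.883% in the unbound RNA had such a p in limma. The groups did not overlap for 2.77% and 0.822% of all genes, in the same order. A count of 0 of the 6 is near these shares and is not read as a result about the 6 genes. Nefl averaged 230.1 ± 17.8 RPKM in pull-downs labelled IL34-KO and 237 ± 26.9 RPKM in those labelled control (SD, n = 3 and 4), and 61.6 ± 10.7 RPKM and 60.04 ± 11.5 RPKM in the unbound RNA of the same order of groups (n = 4 each). Across the 6 genes the differences ran from -0.07 for Mtap2 to 0.27 for Nefh (interval -0.07 to 0.61) in the pull-down and from -0.05 to 0.12 in the unbound RNA, with limma adjusted p = 1.00 for each. The pull-down effect on Nefl differed by -0.08 ± 0.21 between groups (interval -0.52 to 0.36), and 0 of the 6 interactions had an unadjusted p under 0.05 by limma or were called by voom. Among all genes, 100 of 10266 interactions had such a p in limma.

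**Figure D5:**
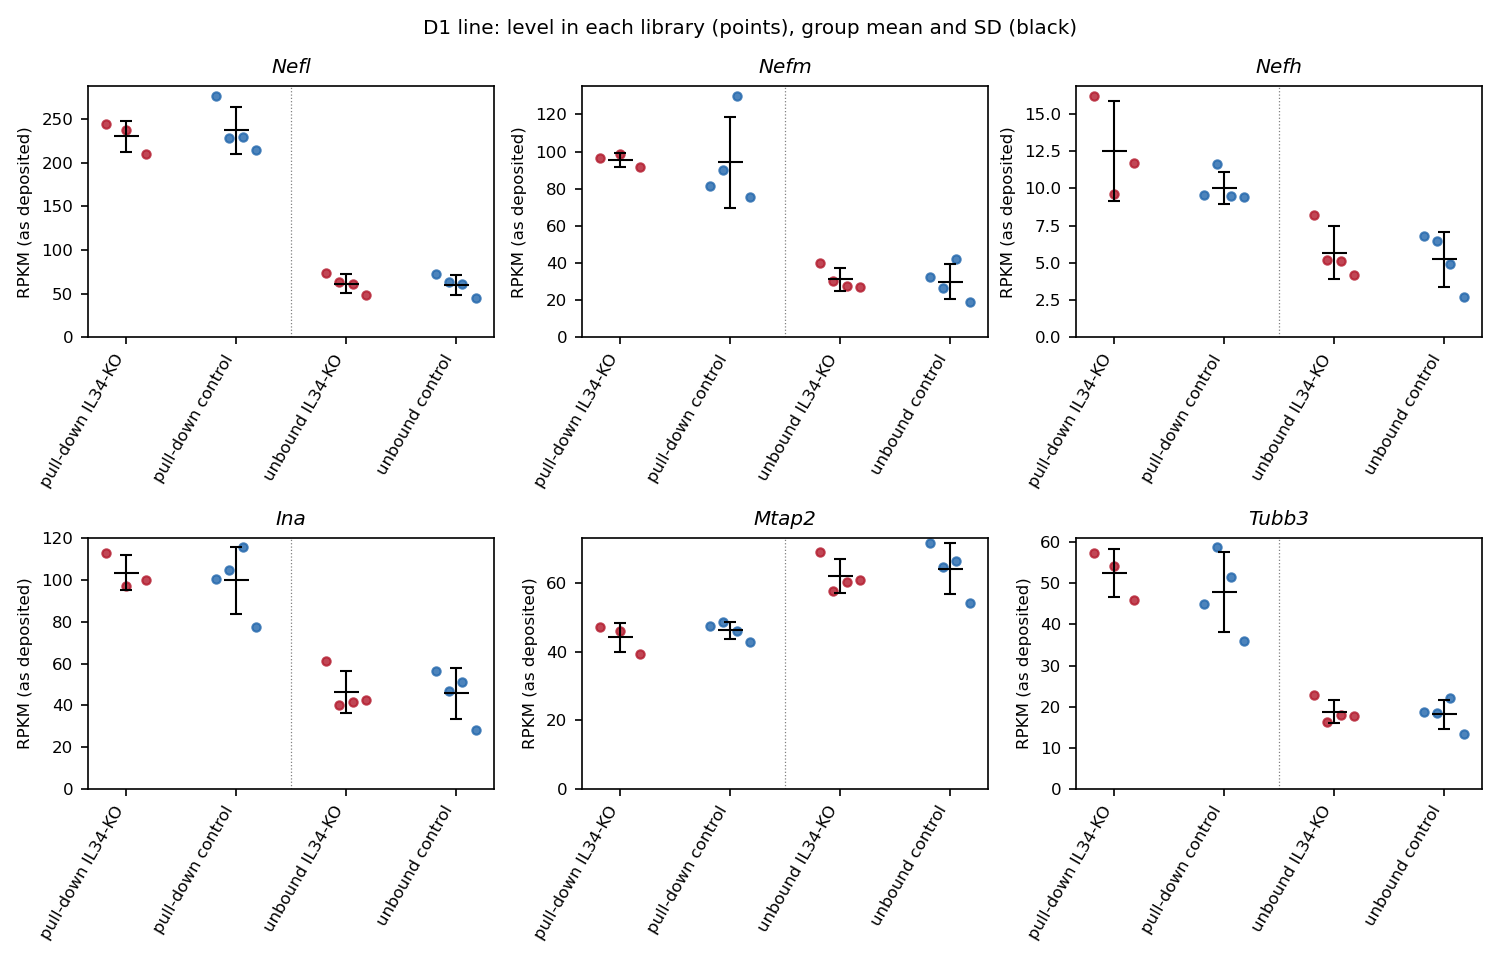
RPKM of the 6 genes in each of the 15 libraries of the D1 line (points, linear axis), pull-down left of unbound. Libraries labelled IL34-KO are in red and control in blue, with group means and SD in black. The pull-down and unbound ranges are separate for every gene, while the libraries labelled IL34-KO and control overlap. Over all genes tested, the fractions did not overlap for 88.4% (labelled IL34-KO) and 87.2% (labelled control). The labels did not overlap for 2.77% (pull-down) and 0.822% (unbound RNA).

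Over the 15 libraries of the D1 line, as a description, Nefl and Nefm correlated at 0.960, while Mtap2 correlated negatively with each of the other 5 genes, at -0.820 with Nefl. The most like gene was Ndfip1 for Nefl (0.995), C330019G07Rik for Nefm (0.987), Mta3 for Nefh (0.958), Sltm for Ina (0.990), Lcat for Mtap2 (0.969) and Tpd52l2 for Tubb3 (0.994). In the microglial line it was Mnt for Nefm (0.804, with Nefl at 0.791), Ctdnep1 for Nefh (0.915) and Igfbp5 for Tubb3 (0.973). Between the microglial and the D1 line levels were set by separate tables and are not compared.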

How the data were processed

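RNA from the striatum was measured in 35 libraries of 12 groups; 1 sample of single nuclei was not analysed here. The authors deposited RPKM values, one table for each mouse line (20 and 15 libraries). The kits were NuGEN Ovation V2 and TruSeq, with single reads of 75 cycles, per the labels' protocols. Per the submitters' processing notes the tools were bcl2fastq, TopHat2 (2.1.0), HTSeq (0.6.0) and DESeq2, and the build was mm9; the annotation, the use of strand and the RPKM denominators are not given in the sources used here. Headings give a group but no replicate number. For the microglial line, 147 lines without values (of 22707) were dropped.

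Read counts behind the deposited RPKM were recovered from the step that 1 read makes in each gene. Within 0.001 reads, 100% of values were whole, over 18090 genes of the microglial line and 18102 of the D1 line. Reads are not independent molecules, so depth bounds counting error only. Comparisons used limma 3.58.1 in R 4.3.3 with an intensity trend on log2(RPKM + 1), so that fold changes of low genes are understated. The filter was a mean of 1 RPKM or more, and a call was an adjusted p (Benjamini-Hochberg over all genes, two-sided) under 0.05. The 10 pull-down and the 10 unbound libraries of the microglial line were each fitted as one set; the D1-line fits held 7, 8 or 15 libraries. The steps were tested on simulated data. Of simulated 2-fold changes between CNO and saline, limma called 40% in the Chrm3 pull-down and 24% in the Chrm4 pull-down. It called 82% in Chrm3 and 73% in Chrm4 unbound RNA. A gene that was not called, above all in the pull-downs, may therefore still differ. The 6 genes and all lists were chosen with earlier results of these data known. The rule for named genes took the 6, up to 3 genes rising and 3 falling most past the threshold in each list and comparison (or the 1 with the smallest p), 5 genes most like each of the 6, and marker genes; the text gives a selection. Syp, the highest list genes in the microglial pull-down, and single libraries were picked with their values in view. Other pseudocounts, filters, scalings, voom, a joint fit and left-out libraries were alternatives, of which rescaling to the reads in genes and leaving out the D1-line libraries richest in cortical markers were chosen after seeing the data.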

Additional observations from a re-analysis of the deposited data

Results flagged for a closer look

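In 21 sets of values of 1 gene or ratio in 1 group of 4 libraries, 3 values stood apart from the others by Dixon's criterion, which chance meets in about 1 of 20 groups. Ina was 61.3 RPKM in 1 unbound library labelled IL34-KO and 40.2 to 42.5 RPKM in the other libraries of that group, a gap of 0.889 of the range; that library also had the group's highest cortical marker sum, 76.4 RPKM. Nefh was 11.6 RPKM in 1 D1 pull-down library labelled control and 9.42 to 9.57 RPKM in the others, a gap of 0.930 of the range. The ratio of Nefl to Nefm was 1.45 in 1 unbound library labelled control and 2.23 to 2.35 in the others, a gap of 0.861 of the range.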

How the results depend on the processing

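The number of the 6 genes called changed in 3 comparisons. In CNO against saline in Chrm3 unbound RNA, against 0 in the reported fit, 2 genes were called with a mean of at least 5 RPKM, 1 with quantile normalization, 2 with trimmed-mean rescaling, 2 with voom, and 0 to 2 when 1 library was left out. The adjusted p of Nefl ranged from 0.0128 (voom) to 0.577 (all libraries in one fit) and that of Ina from 0.0146 (voom) to 0.270 (no filter on low values). The genes called among all in that comparison were 78 in the reported fit, 128 with voom, 35 in one fit of all libraries, 1 without a filter, and 8 to 115 with 1 library left out. Such counts for the filter of 5 RPKM, quantile normalization and trimmed-mean rescaling are not given here. The changes in the number called are therefore not read as a result about the 6 genes. In the Chrm3 pull-down they were 5, against 18 with voom, 34 in one fit, 1 without a filter and 0 to 35 with 1 library left out. Differences changed sign as follows: in Chrm3 unbound RNA Nefh was 0.026 with quantile normalization and 0.033 with trimmed-mean rescaling, Mtap2 0.060 with trimmed-mean rescaling and Tubb3 -0.022 with voom; without the D1-line libraries richest in cortical markers, the difference of libraries labelled IL34-KO from control was -0.016 for Nefm in the pull-down and -0.019 for Tubb3 in the unbound RNA. With 1 library left out, ranges crossing 0 were -0.37 to 0.32 for Nefh in the Chrm3 pull-down, -0.30 to 0.20 for Nefl and -0.055 to 0.17 for Mtap2 in the Chrm4 pull-down, and -0.14 to 0.038 for Nefh, -0.054 to 0.021 for Mtap2 and -0.10 to 0.15 for Tubb3 in Chrm3 unbound RNA. In Chrm4 unbound RNA they were -0.0032 to 0.087 for Nefl, -0.16 to 0.061 for Nefm, -0.044 to 0.010 for Mtap2 and -0.24 to 0.11 for Tubb3. Between pull-downs labelled IL34-KO and control they were -0.084 to 0.037 for Nefl, -0.041 to 0.22 for Nefm, -0.051 to 0.14 for Ina and -0.12 to 0.012 for Mtap2, and in unbound RNA -0.094 to 0.15 for Nefl, -0.10 to 0.26 for Nefm, -0.11 to 0.25 for Nefh, -0.17 to 0.16 for Ina, -0.12 to 0.0089 for Mtap2 and -0.076 to 0.15 for Tubb3; the Nefl interaction in the D1 line ran from -0.19 to 0.055. In both D1-line comparisons of fractions the number called was 4 in place of 6, since Ina and Nefh lost their calls, under quantile normalization, trimmed-mean rescaling, voom and rescaling to the reads in genes. The causes of these changes were not tested. No paired analysis was possible because the columns carry no replicate numbers. Groups of 2 to 4 libraries limit the precision, and a group's lone library, where 1 was left out, was assumed to vary like the others.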
